A study of Mus musculus with 14 samples.

Results

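Kit, Flt3, Csf1r, Cd34, Cd93, Ly6a and Cd44 encode surface receptors and antigens by which early blood and thymic progenitors are recognised, and their transcripts were followed across 14 one-colour Agilent mouse arrays. They are 7 of the 14243 named genes that were tested. They were chosen by gene name, and each probe was matched through its RefSeq accession to the GRCm38.p6 gene table, because the columns read from the scanner files hold accessions and no gene names. This gave 14 of 55681 non-control probes: 1 each for Kit, Cd93 and Ly6a, 2 each for Flt3 and Cd34, 3 for Csf1r and 4 for Cd44. All 14 were well above background on at least 2 arrays and were tested, and the probe with the highest mean stands for its gene unless another is named.

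The cells were CD4-CD8- (double negative, DN) thymocytes of C57BL/6 background. Lethally irradiated CD45.1+ wild-type recipients were given total bone marrow of 4 genotypes, each carrying Cre-ERT2, a Cre recombinase that acts once tamoxifen reaches the cell. These were Ezh2Δ/Δp53Δ/Δ (double-deleted, from Ezh2flox/flox;p53flox/flox marrow), Ezh2Δ/Δ (Ezh2-deleted, from Ezh2flox/flox marrow), p53Δ/Δ (p53-deleted, from p53flox/flox marrow) and WT (Cre-ERT2 alone, with no floxed gene). Deletion followed 4 weeks after transplantation. At 3 months after transplantation, cells of 3 successive stages were sorted, DN1 as CD44+CD25-, DN2 as positive for both and DN3 as CD44-CD25+, for 1 array per genotype and stage, 12 in all. The other 2 arrays hold DN2-gated leukemic cells of mice 13 and 19, which had early T cell precursor acute lymphoblastic leukemia (ETP-ALL) on the double-deleted background. No age of the mice and no time of sampling of the leukemias is given, the stated gates name no marker that separates donor from recipient cells, and 1 protocol text speaks of bone marrow where the design and sample names speak of thymus.

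Kit, Flt3 and Csf1r are class III receptor tyrosine kinases. A ligand on or from a neighbouring cell (stem cell factor, FLT3 ligand, or CSF1 and IL-34) joins receptor chains, which then recruit adaptors such as Grb2 and the phosphatase Shp2. Flt3 marks multipotent and lymphoid-primed progenitors, Kit marks the earliest thymic progenitors up to the DN2 stage, and Csf1r drives the formation of macrophages. Cd34 is a sialomucin of stem and progenitor cells, Cd93 a lectin-like membrane protein of early lymphoid and myeloid precursors, Ly6a (Sca-1) a lipid-anchored protein of stem cells that interferons also induce, and Cd44 the receptor for hyaluronan. In human ETP-ALL, leukemic cells often carry stem or myeloid antigens such as CD34 and CD117, the product of KIT.

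The genotypes remove Ezh2, the methyltransferase of Polycomb repressive complex 2, a complex known to gather at promoters rich in CpG. The promoter windows of Kit, Flt3 and Cd34 are shown because they differ in this feature, and because Cd34 had the widest range of level between arrays of the 7 genes. Each window runs 5′ to 3′ on the strand of its gene from 250 bases before to 50 bases after the RefSeq start on GRCm38.p6, with CG in capitals. They lie at chr5:75574737-75575036 on the plus strand for Kit, chr5:147400440-147400739 on the minus strand for Flt3 and chr1:194938571-194938870 on the plus strand for Cd34.
Kit: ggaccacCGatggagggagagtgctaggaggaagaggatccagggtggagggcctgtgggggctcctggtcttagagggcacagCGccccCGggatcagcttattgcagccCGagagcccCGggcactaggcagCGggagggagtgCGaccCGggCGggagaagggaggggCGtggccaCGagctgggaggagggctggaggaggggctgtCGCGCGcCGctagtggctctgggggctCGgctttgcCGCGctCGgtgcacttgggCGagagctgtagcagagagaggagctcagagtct
Flt3: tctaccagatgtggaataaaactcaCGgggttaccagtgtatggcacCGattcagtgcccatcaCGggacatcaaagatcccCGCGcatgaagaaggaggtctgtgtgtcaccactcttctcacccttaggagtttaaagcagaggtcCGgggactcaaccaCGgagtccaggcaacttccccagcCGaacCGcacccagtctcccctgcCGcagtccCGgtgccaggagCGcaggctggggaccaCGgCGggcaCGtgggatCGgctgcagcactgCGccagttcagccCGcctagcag
Cd34: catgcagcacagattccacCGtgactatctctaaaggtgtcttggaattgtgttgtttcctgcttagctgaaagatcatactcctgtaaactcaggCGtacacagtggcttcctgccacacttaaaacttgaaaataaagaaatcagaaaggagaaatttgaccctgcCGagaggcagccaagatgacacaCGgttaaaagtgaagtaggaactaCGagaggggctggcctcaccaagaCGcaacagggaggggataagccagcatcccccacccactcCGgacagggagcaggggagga

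The Kit window holds 20 CG and the Flt3 window 18, against 7 in that of Cd34, and the median of 32851 mouse windows was 7. Of those windows, 73.5% hold fewer CG than Kit, 70.3% fewer than Flt3 and 47.9% fewer than Cd34. The letters GATAA, a core of many GATA factor sites, were searched on both strands (GATAA or TTATC). They stand once or more in the Cd34 window and not in those of Kit and Flt3, and 25.4% of all windows hold them. TGTGGT or ACCACA, a core of many RUNX sites, is in none of the 3 and in 16.8% of all windows.

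The share of probes well above background lay between 40.3% and 50.4%, and there were no saturated spots. The 6 arrays of Ezh2-deleted and p53-deleted cells shared slide 2, whose 75th percentile of signal was 70.5 to 141, against 299 to 589 on the other 8 arrays. Slide 1 held the WT arrays with double-deleted DN2 and DN3, slide 3 double-deleted DN1 and slide 4 both leukemias. For Ezh2-deleted or p53-deleted against WT, and for ETP-ALL against double-deleted cells, slide and group therefore cannot be told apart. Trp53 had levels of -3.70, -5.58 and -5.05 at DN1, DN2 and DN3 of p53-deleted cells, none well above background, against -0.02, 0.87 and 1.12 in WT. In double-deleted cells it had levels of -4.05, -2.59 and -1.10, well above background on all 3 arrays, and it stood at -6.06 in leukemia 13, not well above background, and at -4.04 in leukemia 19, well above it. Trp53 signal was thus still measured in libraries labelled p53Δ/Δ on the Ezh2-deleted background, below the WT level of the same stage on each, and fell by 3.24 ± 0.70 against WT (limma adjusted p = 0.0317). The Ezh2 probe was called in no comparison, and where it lies relative to the deleted part is not stated in the labels. Il2ra, which encodes the CD25 of the gate, stood at 6.53 and 6.19 in the leukemias, at 0.40 to 2.42 in DN1, 5.19 to 7.54 in DN2 and 5.21 to 7.21 in DN3 cells. The T lineage genes Thy1 and Cd3e were well above background on all 14 arrays, and so was Cd4, at 1.09 to 3.71, although the gate is negative for its protein. Every level is a log2 processed intensity from which the array's own 75th percentile was subtracted, so that 0 is that percentile, and levels are compared between arrays for 1 probe, never between probes.

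Kit was well above background on all 14 arrays. In ETP-ALL it stood at 3.69 in mouse 13 and 2.05 in mouse 19. It stood at 2.21, 2.53 and 2.03 at DN1, DN2 and DN3 of double-deleted cells, at 2.21, 2.97 and 1.71 in Ezh2-deleted, at 1.02, 2.21 and 2.75 in p53-deleted, and at 1.42, 2.64 and 0.09 in WT cells. The leukemia of mouse 13 held the highest level of the 14 arrays and WT DN3 the lowest. DN2 was above DN1 in all 4 genotypes, by 1.25-fold in double-deleted and 2.33-fold in WT cells at the extremes. From there the genotypes parted on single arrays. Kit was 5.86-fold lower in WT DN3 than in WT DN2, 2.40-fold lower in Ezh2-deleted and 1.41-fold lower in double-deleted cells, while in p53-deleted cells DN3 was 1.45-fold higher than DN2. At DN3 the 3 genotypes with a deletion all lay above WT, by 3.85-fold for double-deleted, 3.07-fold for Ezh2-deleted and 6.34-fold for p53-deleted cells. Each of these ratios sets 1 array against 1 array and has no replicate check.

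Flt3 was high at DN1 and low or undetected after it. It stood at -3.03 and -1.61 in the leukemias of mice 13 and 19. In DN1, DN2 and DN3 cells it stood at -0.25, -2.86 and -3.06 for double-deleted, -0.10, -4.45 and -5.21 for Ezh2-deleted, -1.51, -1.72 and -3.52 for p53-deleted, and -0.11, -4.27 and -4.42 for WT. It was not well above background in DN2 and DN3 of WT and Ezh2-deleted cells and in p53-deleted DN3, and it was so on the other 9 arrays. DN1 and DN2 did not overlap over the 4 genotypes. On single arrays DN2 was at least 9.11-fold lower than DN1 in WT, at least 7.39-fold lower in Ezh2-deleted and 6.12-fold lower in double-deleted cells. In p53-deleted cells it was 1.16-fold lower, DN1 standing below the DN1 level of the other genotypes and DN2 above their DN2 level. The second Flt3 probe was dim, at -6.36 to -2.98, and was well above background on 3 arrays, the DN1 arrays other than that of p53-deleted cells.

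Csf1r divided the genotypes more than the stages. Its probe stood at 2.11 and 1.67 in the leukemias of mice 13 and 19. In DN1, DN2 and DN3 cells it stood at 1.93, 1.59 and 1.75 for double-deleted, 2.90, 1.30 and 0.69 for Ezh2-deleted, 0.70, 0.63 and 0.28 for p53-deleted, and 3.13, 2.80 and 2.71 for WT. The 3 WT arrays lay above the 3 p53-deleted and the 3 double-deleted arrays at every stage, and the Ezh2-deleted arrays reached from WT level at DN1 to p53-deleted level at DN3. A second probe, also well above background on all 14 arrays, gave 0.49 and 0.29 in the leukemias, -0.09, 0.39 and 0.41 in double-deleted, -1.08, -0.74 and -1.01 in Ezh2-deleted, -1.29, -0.91 and -0.38 in p53-deleted and 1.57, 1.104 and 0.81 in WT cells. It placed all 3 Ezh2-deleted arrays below all 3 WT arrays. The dimmest probe was well above background on 5 arrays, the 4 DN1 arrays and p53-deleted DN2, and stood at -1.11 in WT DN1 and -4.71 in WT DN3.

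**Figure D1:**
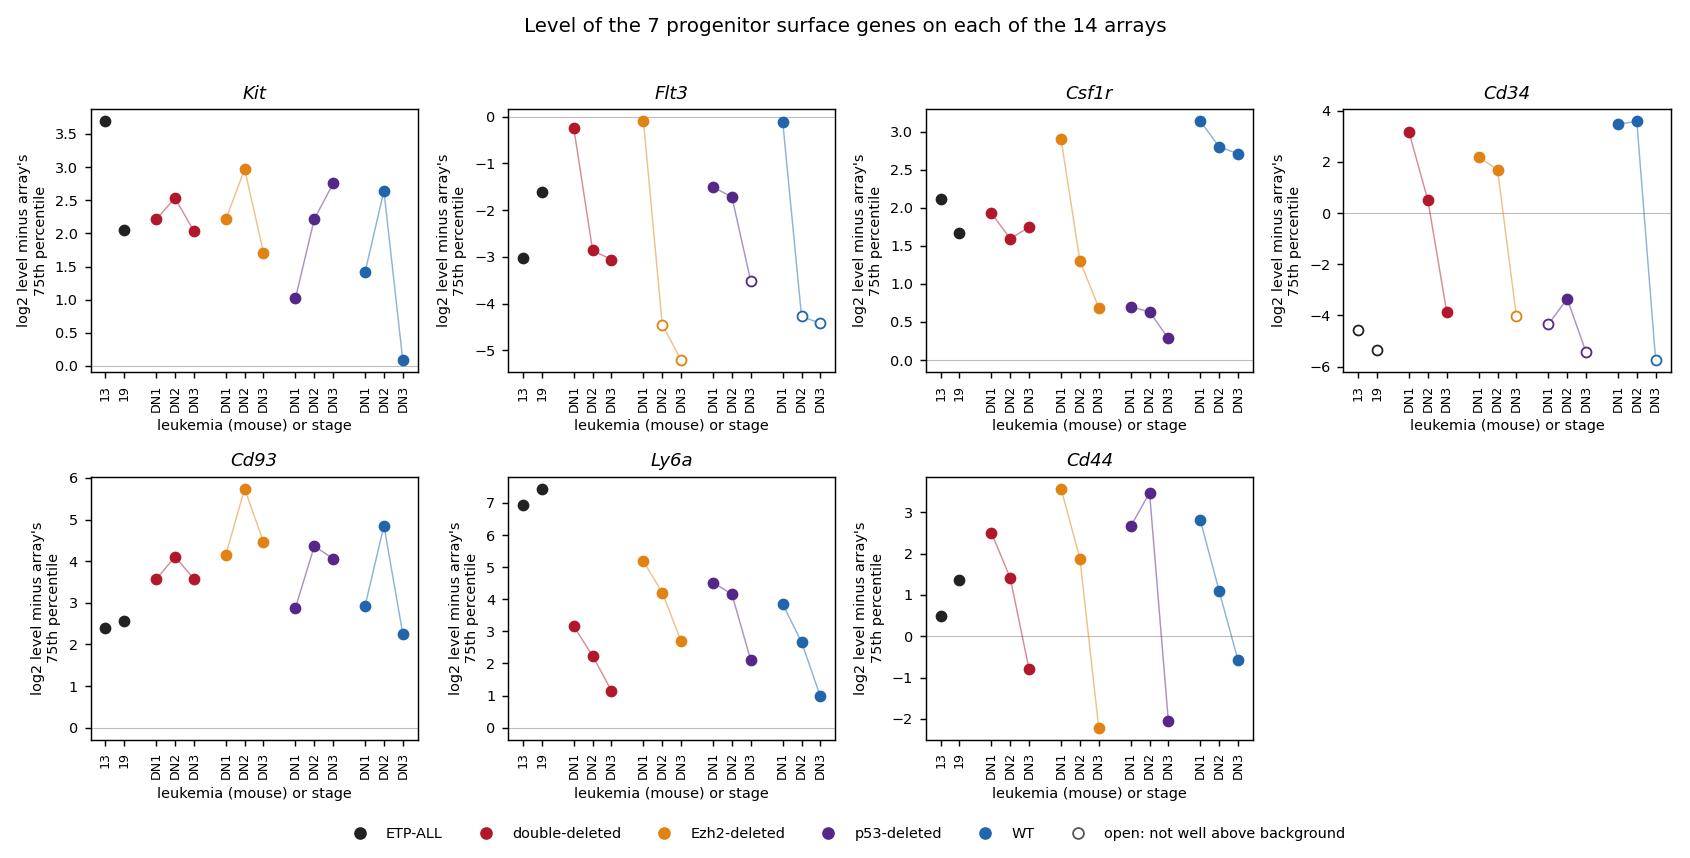
Level of each gene (log2 processed intensity, 0 being the array's 75th percentile) on the 14 arrays, with ETP-ALL by mouse and the other genotypes by stage. Filled points are well above background, open points are not, and lines join the stages of 1 genotype. Ly6a at 6.94 and 7.44 in the leukemias lies above the other 12 arrays, and Cd34 at -4.55 and -5.34 in the leukemias and -4.34 in p53-deleted DN1 lies below the DN1 arrays of the other genotypes.

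Cd34 had the widest range of the 7 genes. It stood at -4.55 and -5.34 in the leukemias, neither well above background. It stood at 3.15, 0.50 and -3.86 at DN1, DN2 and DN3 of double-deleted cells and at 2.19, 1.70 and -4.02 in Ezh2-deleted cells. In p53-deleted cells it stood at -4.34, -3.35 and -5.43, and in WT cells at 3.47, 3.58 and -5.74. The DN3 arrays of Ezh2-deleted, p53-deleted and WT cells and p53-deleted DN1 were not well above background. Cd34 was thus high in DN1 and DN2 cells of WT and Ezh2-deleted marrow, high in double-deleted DN1 and lower in double-deleted DN2, and near or below background at every stage of p53-deleted cells by this probe. At DN1 it was at least 139-fold lower in p53-deleted than in WT cells, and at DN2 122-fold lower. In double-deleted against WT cells it was 1.25-fold lower at DN1 and 8.48-fold lower at DN2. Its second probe was dimmer, at -4.50 to -0.87, and did not follow the first: its 3 highest arrays were those of p53-deleted cells, at -1.62, -1.44 and -0.87 in DN1, DN2 and DN3, against -2.54, -2.34 and -3.91 in WT cells, of which the last was not well above background.

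Cd93 was well above background on all 14 arrays. It stood at 2.39 and 2.57 in the leukemias of mice 13 and 19, at 3.57, 4.11 and 3.58 at DN1, DN2 and DN3 of double-deleted cells, at 4.16, 5.74 and 4.46 in Ezh2-deleted, at 2.88, 4.36 and 4.06 in p53-deleted, and at 2.93, 4.86 and 2.26 in WT cells. DN2 held the highest level of the 3 stages in all 4 genotypes. The leukemias lay below 11 of the 12 non-leukemic arrays, WT DN3 being the exception.

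Ly6a followed one order in all 4 genotypes, with DN1 above DN2 and DN2 above DN3, and the leukemias stood above every other array. It was well above background on all 14 arrays, at 6.94 and 7.44 in the leukemias of mice 13 and 19. In DN1, DN2 and DN3 cells it stood at 3.15, 2.23 and 1.15 for double-deleted, 5.18, 4.21 and 2.69 for Ezh2-deleted, 4.52, 4.15 and 2.10 for p53-deleted, and 3.84, 2.66 and 0.97 for WT. DN3 was below DN1 by 4.01-fold in double-deleted, 5.60-fold in Ezh2-deleted, 5.33-fold in p53-deleted and 7.32-fold in WT cells on these single arrays.

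Cd44 is part of the sort gate, so its levels by stage describe the sort. It was well above background on all 14 arrays, at 0.49 and 1.37 in the leukemias. In DN1, DN2 and DN3 cells it stood at 2.50, 1.41 and -0.80 for double-deleted, 3.57, 1.88 and -2.21 for Ezh2-deleted, 2.66, 3.47 and -2.06 for p53-deleted, and 2.81, 1.09 and -0.58 for WT. DN3, gated as CD44-, was the lowest stage in every genotype. In p53-deleted cells DN2 was 1.76-fold above DN1, while it was 2.13-fold to 3.28-fold below DN1 in the other 3 genotypes. Of the other 3 Cd44 probes, the brightest, at -3.53 to 2.82, also had p53-deleted DN2 (2.65) above p53-deleted DN1 (1.87).

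By group mean over stages or leukemias (± SD, n = 2 for ETP-ALL and 3 for the rest), Kit ran from 2.87 ± 1.16 in ETP-ALL through 2.30 ± 0.64 in Ezh2-deleted, 2.26 ± 0.25 in double-deleted and 1.997 ± 0.89 in p53-deleted to 1.38 ± 1.28 in WT cells, with each step smaller than the SD of one of the groups it joins. Flt3 lay between -2.06 ± 1.57 in double-deleted and -3.25 ± 2.76 in Ezh2-deleted cells, and none of its steps exceeded the SDs. From lowest to highest, Csf1r stood at 0.54 ± 0.22 in p53-deleted, 1.63 ± 1.14 in Ezh2-deleted, 1.75 ± 0.17 in double-deleted, 1.89 ± 0.31 in ETP-ALL and 2.88 ± 0.22 in WT cells, and the step from ETP-ALL to WT alone exceeded both SDs. Cd34 stood lowest in ETP-ALL and p53-deleted cells, at -4.95 ± 0.56 and -4.37 ± 1.04, and the next mean, -0.07 ± 3.54 in double-deleted cells, lay above them by more than either SD. For Ly6a the step from ETP-ALL, at 7.19 ± 0.35, to Ezh2-deleted cells, at 4.03 ± 1.25, exceeded both SDs, and for Cd93 that from Ezh2-deleted cells, at 4.79 ± 0.84, to p53-deleted cells, at 3.77 ± 0.78. The SD of a genotype holds the differences between its stages and is not a spread between replicates. Both leukemias are DN2-gated, so their means differ in stage from those of the genotypes.

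**Figure D2:**
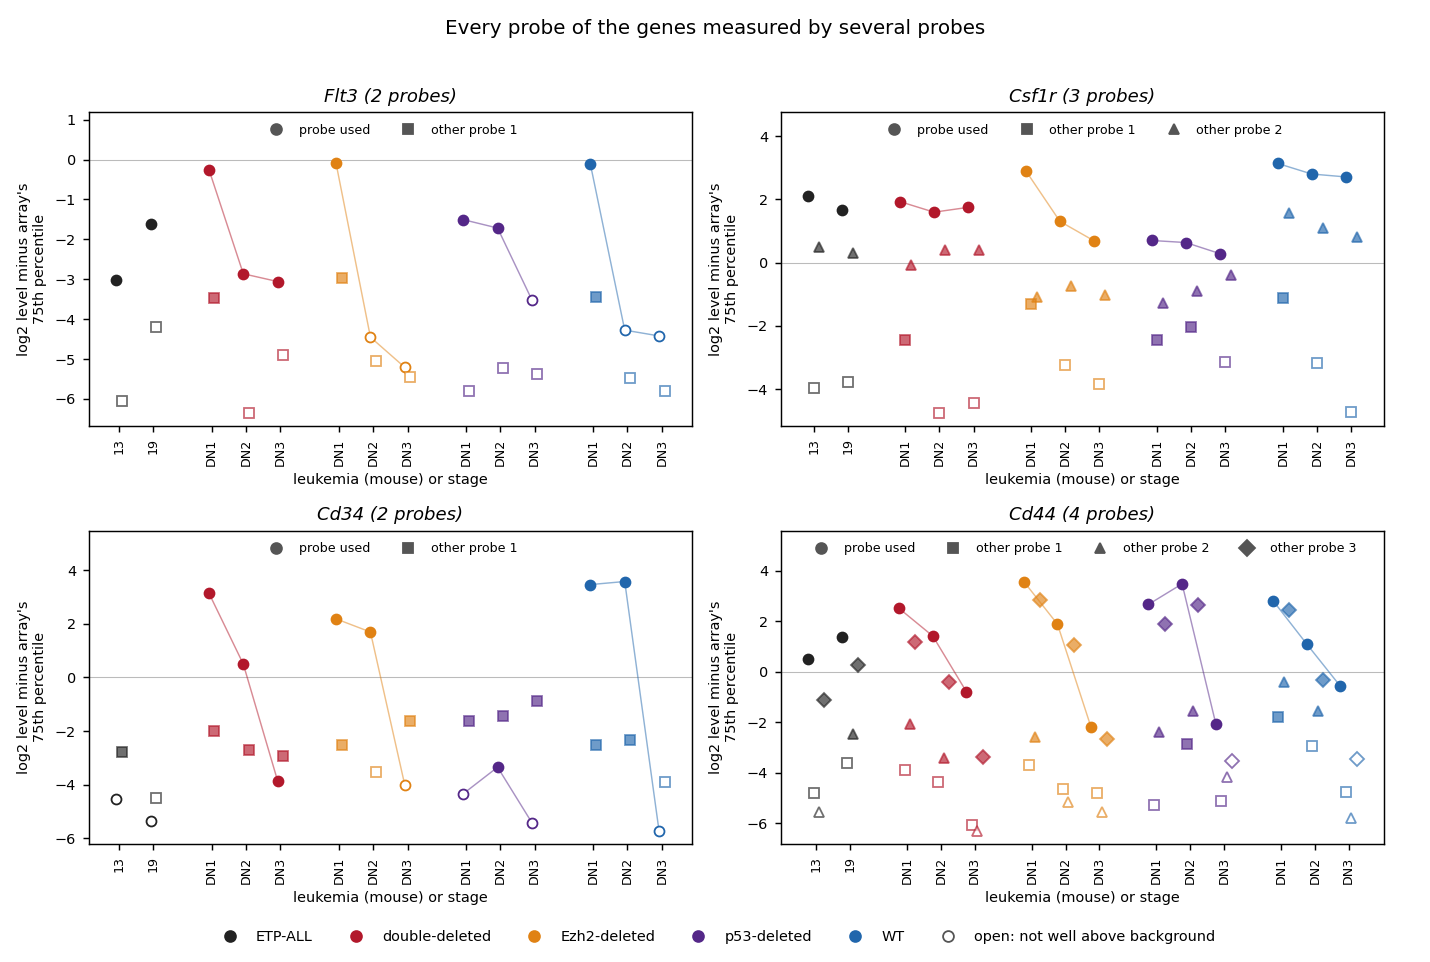
Levels of every probe of Flt3, Csf1r, Cd34 and Cd44 on the 14 arrays (log2 processed intensity, 0 being the array's 75th percentile), with circles and lines for the probe used and squares, triangles and diamonds for the others. Open symbols are not well above background. The second Cd34 probe is highest in p53-deleted cells, where the probe used is near or below background, while both brighter Csf1r probes are lowest in the slide 2 genotypes, apart from Ezh2-deleted DN1 for the probe used.

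The step from DN1 to DN2 was tested over the 4 genotypes with limma, with genotype and stage as additive terms. None of the 7 genes was called at an adjusted p under 0.05, while 1.38% of all features were (0.166% higher and 1.21% lower), and 19.6% had an unadjusted p under 0.05 (5297 of 27056). In these sorted but mixed samples, fewer cells of a type and less RNA per cell cannot be told apart. Flt3 came closest, averaging -3.33 ± 1.29 in DN2 and -0.49 ± 0.68 in DN1 cells (SD, n = 4 each), a log2 change of -2.83 ± 0.61 (SE, limma adjusted p = 0.0681). It passed without p53-deleted DN1 (-3.53, adjusted p = 0.00937) and without p53-deleted DN2 (-3.45, adjusted p = 0.0123). Ly6a, at -0.86 ± 0.21 (adjusted p = 0.103), passed without the same p53-deleted arrays (-0.95 and -1.02, adjusted p = 0.0484 and 0.0343). Cd93 stood at 1.38 ± 0.37 (adjusted p = 0.124) and Kit at 0.87 ± 0.47 (adjusted p = 0.332, 95% interval -0.20 to 1.95), Kit without overlap between the stages. Csf1r (-0.58 ± 0.33), Cd34 (-0.51 ± 1.16) and the gate gene Cd44 (-0.92 ± 0.60) also missed the threshold.

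Markers of some other cells moved with this step, not all in one direction. The summed linear level of 6 NK cell markers was 9.82 to 113 in DN2 and 38.9 to 467 in DN1 cells, and that of 7 granulocyte precursor markers was 0.777 to 21.8 in DN2 and 4.04 to 93.4 in DN1 cells. Of the granulocyte markers, Prtn3 and Ms4a3 were not well above background on any DN2 array. The sum of 6 mast cell markers was 16.3 to 54.1 in DN2 and 8.33 to 43.9 in DN1 cells. It was higher in DN2 in WT, Ezh2-deleted and p53-deleted cells and lower in double-deleted cells, with 2 markers well above background on each DN2 array. The sum of 8 dendritic cell markers was 173 to 406 in DN2 and 181 to 458 in DN1 cells. The part of these cells in the values of Kit, Flt3 and Ly6a was not tested.

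Between DN3 and DN2 none of the 7 genes was called either, against 0.0222% of all features (0.0037% higher and 0.0185% lower), and 6.34% (1716 features) had an unadjusted p under 0.05. Ly6a averaged 1.73 ± 0.81 in DN3 and 3.31 ± 1.01 in DN2 cells (SD, n = 4 each), a log2 change of -1.58 ± 0.21 with an adjusted p of 0.0772, and was lower at DN3 in 4 of 4 genotypes. Cd34 averaged -4.76 ± 0.96 in DN3 and 0.61 ± 2.93 in DN2 cells, with no overlap and a change of -5.37 ± 1.16 (adjusted p = 0.289). In WT cells alone that change was at least 166-fold, and in Ezh2-deleted cells at least 48.1-fold, by this probe. The second Cd34 probe did not show the fall. It stood at 0.16 ± 0.49, with overlap between the stages, and was well above background on 3 of 4 arrays of each. Cd44, on which the gate selects, stood at -3.38 ± 0.60 (adjusted p = 0.158), Cd93 at -1.18 ± 0.37 (adjusted p = 0.533) and Kit at -0.94 ± 0.47 (adjusted p = 0.842). Flt3 and Csf1r stood at -0.73 ± 0.61 and -0.23 ± 0.33.

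In Ezh2-deleted cells 3 of the 7 genes differed from WT, where 34.1% of all features were called (15.6% higher and 18.5% lower), so that such a share is near the background of the comparison. Ly6a and Cd93 were higher and Csf1r was lower. Ly6a averaged 4.03 ± 1.25 in Ezh2-deleted and 2.49 ± 1.44 in WT cells (SD over 3 stages each), a rise of 1.53 ± 0.25 on the log2 scale (2.89-fold, limma adjusted p = 0.00195) that was seen at 3 of 3 stages. Cd93 rose by 1.44 ± 0.43 (adjusted p = 0.0299), to 4.79 ± 0.84 in Ezh2-deleted cells against 3.35 ± 1.35 in WT, at 3 of 3 stages. Csf1r fell by 1.25 ± 0.38 (adjusted p = 0.0313), averaging 1.63 ± 1.14 in Ezh2-deleted and 2.88 ± 0.22 in WT cells. Its second probe fell by 2.10 ± 0.31 (adjusted p = 0.0011), and its dimmest probe stood at 0.19 ± 0.56. Cd93 lost its call when any array but WT DN2 was left out (0.93 to 1.51, adjusted p = 0.0675 to 0.0964) and under quantile normalization (1.25, adjusted p = 0.0624). Csf1r lost it in 5 of 6 such fits (-0.85 to -1.39, adjusted p = 0.0561 to 0.127). Kit (0.91 ± 0.55), Flt3 (-0.32 ± 0.71), Cd34 (-0.48 ± 1.34) and Cd44 (-0.03 ± 0.69) were not called. For Cd44 the 4 probes ranged from -1.85 to 0.86.

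In p53-deleted cells Ly6a was higher and Cd34 and Csf1r were lower than in WT, 3 of 7 against a background of 35.8% of all features (15.3% higher and 20.5% lower). Ly6a rose by 1.099 ± 0.25 (limma adjusted p = 0.0089), to 3.59 ± 1.30 in p53-deleted cells against 2.49 ± 1.44 in WT (SD over 3 stages each), at 3 of 3 stages. Csf1r fell by 2.34 ± 0.38 (5.07-fold, adjusted p = 0.00163), averaging 0.54 ± 0.22 in p53-deleted and 2.88 ± 0.22 in WT cells with no overlap, and it was 5.41-fold, 4.49-fold and 5.37-fold lower at DN1, DN2 and DN3. Its second probe fell by 2.02 ± 0.31 (adjusted p = 0.0012), while its dimmest probe, well above background on 2 p53-deleted and 1 WT array, stood at 0.46 ± 0.56. Cd34 fell by 4.81 ± 1.34 (adjusted p = 0.0222), with 1 of 3 p53-deleted and 2 of 3 WT arrays well above background. Its second probe stood at 1.62 ± 0.56 (adjusted p = 0.0510), opposed in direction. The Cd34 call was lost without WT DN1, WT DN2, p53-deleted DN1 or p53-deleted DN2 (-3.41 to -4.41, adjusted p = 0.0738 to 0.0946). Kit (0.61 ± 0.55), Flt3 (0.69 ± 0.71), Cd93 (0.42 ± 0.43) and Cd44 (0.25 ± 0.69) were not called.

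Markers of myeloid and dendritic cells also differed between these genotypes and WT, not all in one direction. The summed linear level of 7 granulocyte precursor markers was 4.04, 0.777 and 0.790 in p53-deleted cells at DN1, DN2 and DN3, against 47.8, 21.8 and 2.42 in WT. In Ezh2-deleted cells this summed level was 93.4, 11.9 and 0.728, above WT at DN1 and below it at DN2 and DN3. That of 11 macrophage and monocyte markers was 14.8, 16.2 and 23.8 in p53-deleted, 20.1, 20.0 and 18.5 in Ezh2-deleted and 68.0, 54.1 and 37.5 in WT cells. Of these, Adgre1, Fcgr1 and C1qa, which define macrophages, were well above background in WT DN1 and not in WT DN2 or DN3. Of the 11, Cd14 rose in both genotypes, while 3 fell in Ezh2-deleted and 4 in p53-deleted cells. Of all features 34.1% and 35.8% were called in these comparisons. The sum of 8 dendritic cell markers was 183 to 210 in p53-deleted and 173 to 198 in Ezh2-deleted cells. It was 368 to 458 in WT, without overlap. The 6 tested markers did not move together. Siglech, a marker of plasmacytoid dendritic cells, fell by 1.56 ± 0.23 in p53-deleted and by 1.95 ± 0.23 in Ezh2-deleted cells. Bst2 rose in both genotypes, and Ccr7 rose in p53-deleted cells. The list medians were -0.10 in p53-deleted and 0.75 in Ezh2-deleted cells, against 0.05 and 0.10 for all features. Xcr1 and Clec9a were not well above background on the WT and p53-deleted arrays. In double-deleted cells the dendritic cell sum was 238 to 259. The part of all these cells in the Cd34 and Csf1r values was not tested.

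In double-deleted cells none of the 7 genes differed from WT by this test, while 7.41% of all features did (3.61% higher and 3.8% lower) and 27.6% (7467 features) had an unadjusted p under 0.05. Csf1r came closest, averaging 1.75 ± 0.17 in double-deleted and 2.88 ± 0.22 in WT cells (SD over 3 stages each) with no overlap, a change of -1.13 ± 0.38 (adjusted p = 0.0964). Its second probe stood at -0.92 ± 0.31 (adjusted p = 0.0983). Ly6a stood at -0.31 ± 0.25 (95% interval -0.88 to 0.25). Kit stood at 0.88 ± 0.55 (95% interval -0.36 to 2.11), Flt3 at 0.88 ± 0.71, Cd93 at 0.40 ± 0.43 and Cd44 at -0.07 ± 0.69. Cd34 stood at -0.51 ± 1.34, and its wide interval of -3.55 to 2.53 includes sizeable differences in either direction.

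Ezh2-deleted and p53-deleted cells shared slide 2 and can be set against each other within it. None of the 7 genes was called, against 3.92% of all features (2.23% higher and 1.69% lower), and 19.2% (5208 features) had an unadjusted p under 0.05. Cd34 averaged -0.04 ± 3.45 in Ezh2-deleted and -4.37 ± 1.04 in p53-deleted cells (SD over 3 stages each), a change of 4.33 ± 1.34 (adjusted p = 0.118) that passed without p53-deleted DN3 (6.13, adjusted p = 0.0318). At DN1 Cd34 was at least 57.4-fold and at DN2 33.1-fold higher in Ezh2-deleted cells, and at DN3 neither array was well above background. The second Cd34 probe stood at -1.25 ± 0.56. Csf1r stood at 1.09 ± 0.38 (adjusted p = 0.155), Cd93 at 1.02 ± 0.43 (adjusted p = 0.237) and Ly6a at 0.43 ± 0.25 (adjusted p = 0.383). Flt3 (-1.005 ± 0.71), Kit (0.30 ± 0.55) and Cd44 (-0.28 ± 0.69) also missed the threshold.

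In the leukemias Ly6a was higher than in non-leukemic double-deleted cells, and the brighter Cd34 probe was not well above background. Both leukemias were compared with what the additive fit gives for double-deleted DN2, the same gate, and for double-deleted DN1. Against DN2, 1 of 7 genes was called, where 2.42% of all features were (1.44% higher and 0.976% lower). Ly6a averaged 7.19 ± 0.35 in ETP-ALL (SD, n = 2), against 2.23 on the double-deleted DN2 array, a fitted rise of 4.77 ± 0.31 (27.2-fold, limma adjusted p = 0.00027). On single arrays it was 26.1-fold higher in mouse 13 and 36.9-fold higher in mouse 19. The brighter Cd34 probe stood at 0.50 on the double-deleted DN2 array, and the leukemias were at least 21.9-fold below that array. Against the additive estimate its change was -6.50 ± 1.58 (adjusted p = 0.0680). The second Cd34 probe stood at -2.80 in mouse 13, well above background, and at -4.50 in mouse 19, not so, against -2.70 in double-deleted DN2. Its change was -0.94 ± 0.76 (adjusted p = 0.550). Cd93 averaged 2.48 ± 0.13 in ETP-ALL, against 4.11 in double-deleted DN2, a change of -2.12 ± 0.50 (adjusted p = 0.0618). Kit (0.01 ± 0.74, 95% interval -1.64 to 1.66), Flt3 (0.44 ± 0.89), Csf1r (0.25 ± 0.45) and Cd44 (-0.92 ± 0.83) were not called. The leukemias parted for Kit, 2.23-fold above double-deleted DN2 in mouse 13 and 1.40-fold below it in mouse 19, and for Flt3, 1.12-fold below it in mouse 13 and 2.38-fold above it in mouse 19.

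Against double-deleted DN1, Ly6a was again higher and Cd34 lower by its brighter probe, 2 of 7 genes where 3.41% of all features were called (1.7% higher and 1.71% lower). Both comparisons use the same leukemic arrays. Ly6a rose by 3.91 ± 0.31 (15.0-fold, limma adjusted p = 0.000575). The brighter Cd34 probe stood at 3.15 on the double-deleted DN1 array, and the leukemias were at least 137-fold below that array. Against the additive estimate it fell by 7.005 ± 1.58 (128-fold, adjusted p = 0.0438), with neither leukemia well above background. The second Cd34 probe stood at -1.996 in double-deleted DN1, and its change of -1.27 ± 0.76 was not called (adjusted p = 0.407). The call of the brighter probe was lost when any of the 3 arrays concerned was left out (adjusted p = 0.105 to 0.231) and with scaling on the probes detected on all arrays (adjusted p = 0.0646). Flt3 stood at -2.39 ± 0.89 (adjusted p = 0.180), 6.87-fold lower in mouse 13 and 2.57-fold lower in mouse 19 on single arrays. Cd44 (-1.84 ± 0.83), Kit (0.88 ± 0.74), Cd93 (-0.74 ± 0.50) and Csf1r (-0.33 ± 0.45) were not called. The summed level of 7 granulocyte precursor markers was 1.82 and 1.81 in the leukemias, against 7.99 in double-deleted DN2 and 45.1 in double-deleted DN1, and their part in the Cd34 values was not tested. That of 11 macrophage and monocyte markers was 41.5 and 43.8, against 27.9 in double-deleted DN2 and 22.0 in double-deleted DN1.

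**Figure D3:**
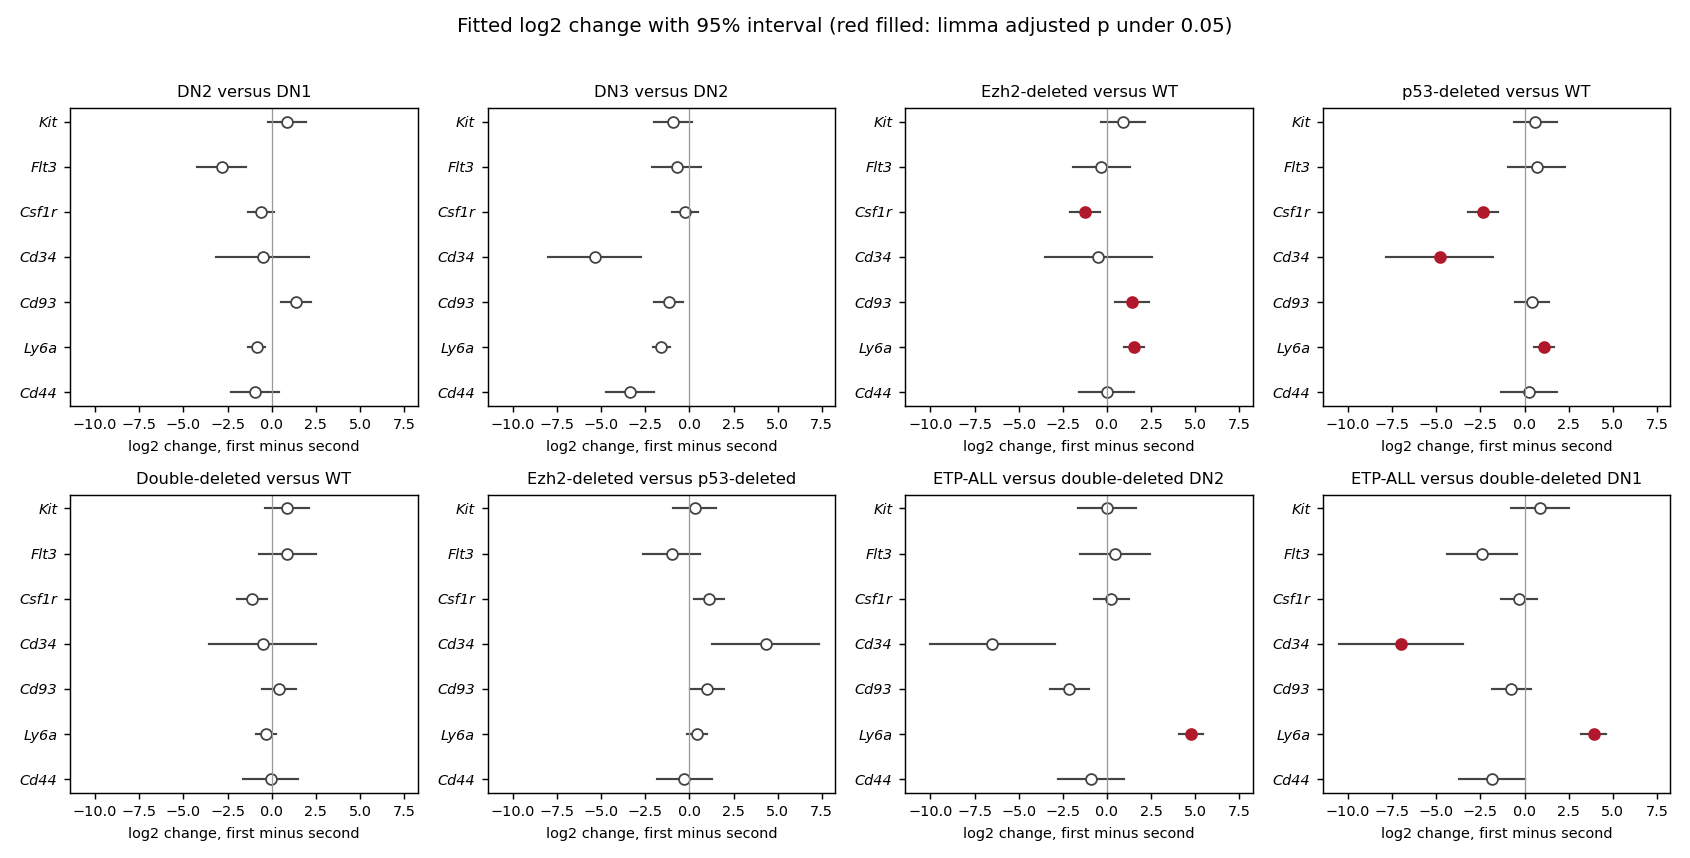
Fitted log2 change of each gene in 8 comparisons, as a point with its 95% interval, the first-named group minus the second. Red filled points have a limma adjusted p under 0.05. Ly6a is called in 4 of the panels and stands highest against double-deleted DN2 and DN1, at 4.77 and 3.91, and Cd34 has the widest intervals.

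Ly6a sits in a family of small lipid-anchored proteins, and 14 relatives were listed, of which 12 were on the array by name and 10 were tested. In ETP-ALL against double-deleted DN2, 2 of the 10 rose and none fell, where 1.44% of all features were higher and 0.976% lower, with a median change of 0.08 against -0.02 for all features. Ly6c1, an antigen of monocytes and memory T cells, stood at 8.79 and 8.88 in the leukemias and at 3.63 in double-deleted DN2, and rose by 5.42 ± 0.52 (adjusted p = 0.0012). Ly6f stood at -0.82 and -0.24 in the leukemias, was not well above background in double-deleted DN1, DN2 or DN3 cells, and was at least 12.4-fold higher (adjusted p = 0.0083). Against double-deleted DN1 the same pair rose, Ly6c1 by 2.93 ± 0.52 and Ly6f at least 11.9-fold. Ly6e, a relative induced by interferon, stood at 8.22 and 8.04 in the leukemias, against 7.68 in double-deleted DN2, and was not called. It and Ly6d were chosen for display after their values were seen. Ly6d, a marker of early B lineage and thymic cells, stood at 1.91 and 5.22 in the leukemias and at 5.53 in double-deleted DN2.

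Ly6c1 and Ly6e were also the relatives that rose in both slide 2 genotypes. Against WT, 3 of 10 rose and 1 fell in Ezh2-deleted cells, and 2 rose in p53-deleted cells, where 34.1% and 35.8% of all features were called. Ly6c1 stood at 8.85, 5.86 and 4.68 in Ezh2-deleted and 8.24, 6.37 and 6.25 in p53-deleted cells at DN1, DN2 and DN3, against 7.23, 4.06 and 2.61 in WT. It rose by 1.83 ± 0.45 in Ezh2-deleted and 2.32 ± 0.45 in p53-deleted cells (adjusted p = 0.0137 and 0.0042). Ly6e rose by 1.43 ± 0.26 and 1.21 ± 0.26. Ly6h rose and Ly6g6c fell in Ezh2-deleted cells, by 1.41 ± 0.29 for the fall, and Ly6h was well above background on 1 of 3 Ezh2-deleted and no WT arrays, at least 1.25-fold higher. None of the 10 was called in double-deleted against WT cells, where 7.41% of all features were. Between DN2 and DN1, Ly6c1 fell by 2.48 ± 0.39 (adjusted p = 0.0173), the only call in the family, where 1.38% of all features were called.

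**Figure D4:**
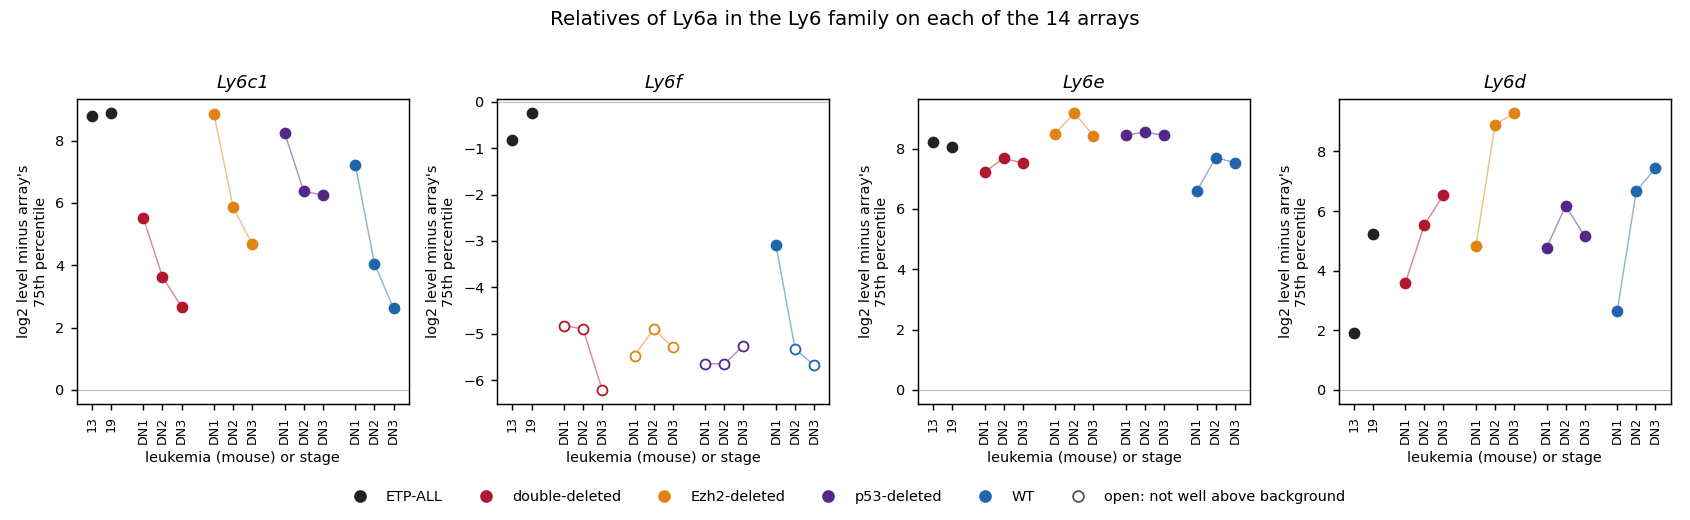
Levels of 4 relatives of Ly6a on the 14 arrays (log2 processed intensity, 0 being the array's 75th percentile), with open points not well above background. Ly6c1 at 8.79 and 8.88 and Ly6f at -0.82 and -0.24 in the leukemias lie above the double-deleted arrays, while Ly6d differs between the leukemias, at 1.91 and 5.22.

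Ligands of the receptor kinases were measured in the same cells. Kitl, which encodes the Kit ligand stem cell factor, was well above background on the 3 double-deleted arrays alone, at -2.46, -2.78 and -3.82 in DN1, DN2 and DN3. The lowest level that passed as well above background differed between arrays, at -4.13 in double-deleted DN3 and -3.79 in WT DN3. Kitl in double-deleted DN3 thus lay below the lowest level that passed in WT DN3. Kitl was at least 1.47-fold higher in double-deleted than in WT cells (adjusted p = 0.0052), and at least 2.26-fold lower in ETP-ALL than in double-deleted DN2 (adjusted p = 0.0143). Flt3l, the ligand of Flt3, stood at 4.73 and 3.20 in the leukemias, and at 3.67, 4.01 and 1.86 in p53-deleted cells at DN1, DN2 and DN3, against 2.85, 0.78 and -0.30 in WT. It rose by 2.07 ± 0.47 in p53-deleted against WT cells (adjusted p = 0.0095). Flt3l, unlike its receptor, was well above background on all 14 arrays.

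Csf1r has a pair of ligands, of which Il34 was well above background on all 14 arrays and Csf1 on 9. Il34, the second ligand of Csf1r, stood at -0.24 and 0.34 in the leukemias. In DN1, DN2 and DN3 cells it stood at -2.96, -3.20 and -0.60 for double-deleted, -2.38, -2.89 and 1.25 for Ezh2-deleted, -3.29, -3.32 and -0.36 for p53-deleted, and -1.87, -1.72 and 0.79 for WT. It was higher at DN3 than at DN2 in all 4 genotypes and rose by 3.06 ± 0.28 (adjusted p = 0.0117). It was the only gene of these lists called between those stages, where 0.0222% of all features were. In ETP-ALL it rose by 3.38 ± 0.39 over double-deleted DN2 (adjusted p = 0.0034). It fell by 1.32 ± 0.32 in double-deleted and 1.39 ± 0.32 in p53-deleted against WT cells (adjusted p = 0.0431 and 0.0095). By the probe used, these are the genotypes in which Csf1r lay below every WT array. The second Csf1r probe also placed the Ezh2-deleted arrays below every WT array, and Il34 was not called in Ezh2-deleted against WT cells. Csf1 stood at 0.11 and -1.14 in the leukemias and was not well above background in double-deleted DN2, a difference of at least 12.5-fold that missed the threshold (adjusted p = 0.0595). Of the PDGF ligands, whose receptors belong to the same class, Pdgfa rose by 4.48 ± 0.67 in double-deleted and 2.49 ± 0.67 in p53-deleted against WT cells, and Pdgfb fell by 4.94 ± 1.05 in ETP-ALL against double-deleted DN1.

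**Figure D5:**
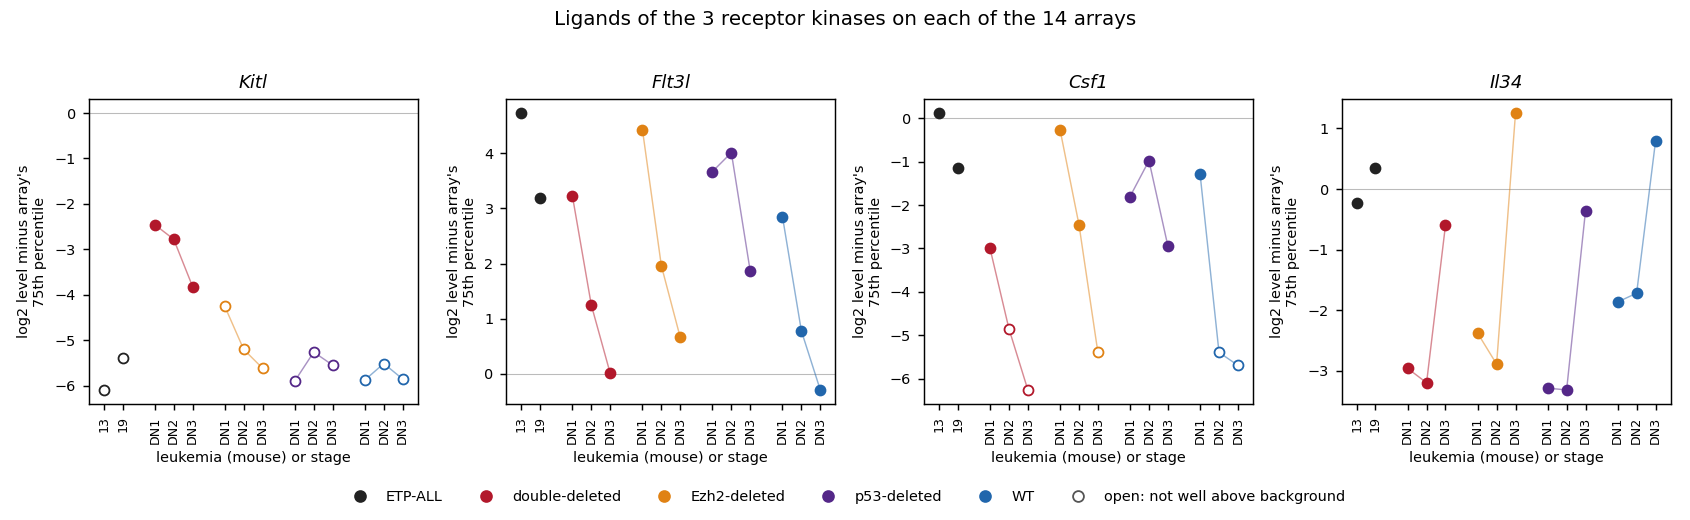
Levels of the ligands of Kit (Kitl), Flt3 (Flt3l) and Csf1r (Csf1 and Il34) on the 14 arrays (log2 processed intensity, 0 being the array's 75th percentile), with open points not well above background. Kitl is filled on the 3 double-deleted arrays alone, at -2.46 to -3.82, and Il34 is highest at DN3 in every genotype.

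Of 7 related receptor kinases 4 were tested. Kdr, a VEGF receptor, fell in Ezh2-deleted (by 1.098 ± 0.26), p53-deleted (by 1.54 ± 0.26) and double-deleted cells (by 1.09 ± 0.26, adjusted p = 0.0438) against WT, and Met fell in Ezh2-deleted and p53-deleted cells. Of 22 genes of signalling below the receptors and its restraint, 3 rose and 2 fell in Ezh2-deleted, 4 rose and 2 fell in p53-deleted, and 1 rose and 1 fell in double-deleted cells against WT, with list medians of 0.52, 0.20 and -0.05 against 0.10, 0.05 and -0.14 for all features. Of all features 34.1%, 35.8% and 7.41% were called in these comparisons. Spred1, an inhibitor of Ras signalling, rose by 1.12 ± 0.25 in Ezh2-deleted and 1.09 ± 0.25 in p53-deleted cells. The docking protein gene Dok1, which restrains such receptors, rose by 1.37 ± 0.28 in Ezh2-deleted cells, where the inhibitor gene Spry1 fell by 1.04 ± 0.33, and the kinase gene Fyn rose by 1.46 ± 0.38 in p53-deleted cells. The adaptor gene Grb2 fell by 1.05 ± 0.27 in Ezh2-deleted and 1.32 ± 0.27 in p53-deleted cells. The kinase gene Fes fell by 1.60 ± 0.49 in p53-deleted cells and fell by 2.004 ± 0.49 in double-deleted cells. In ETP-ALL none of the 22 was called against double-deleted DN2, where 2.42% of all features were. Of all features 3.41% were called against double-deleted DN1. Against double-deleted DN1, the phosphatase gene Ptpn6 fell by 1.09 ± 0.24 and the adaptor gene Gab1 was at least 2.10-fold lower.

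Among 5 relatives of Cd34 and Cd93, Cd248 (endosialin, a relative of Cd93) rose in all 3 genotypes against WT, by 3.20 ± 0.48 in double-deleted, 3.34 ± 0.48 in Ezh2-deleted and 3.59 ± 0.48 in p53-deleted cells. It was well above background on 3 of 3 arrays of each and on 1 of 3 WT arrays. Podxl, a sialomucin like Cd34, stood at -1.59 and -0.95 in the leukemias and at -2.63, -1.46 and -2.86 at DN1, DN2 and DN3 of double-deleted cells, the 5 arrays where it was well above background, and was at least 2.40-fold higher in double-deleted than in WT cells (adjusted p = 0.0012). Thbd (thrombomodulin), a relative of Cd93, fell by 2.57 ± 0.54 in p53-deleted against WT cells and was higher by 3.70 ± 0.54 in Ezh2-deleted than in p53-deleted cells (adjusted p = 0.0097). Podxl2, also of these 5, was called higher in Ezh2-deleted than in WT and in p53-deleted cells. It was called lower in ETP-ALL than in double-deleted DN1. Of 10 tested partners of Cd44 and hyaluronan genes, Hyal2, a hyaluronidase, rose by 2.02 ± 0.30 in Ezh2-deleted and 0.96 ± 0.30 in p53-deleted cells, and Nf2 (merlin) rose in Ezh2-deleted cells. None of the 10 was called in double-deleted cells or in ETP-ALL. Of all features, 34.1% were called in Ezh2-deleted, 35.8% in p53-deleted and 7.41% in double-deleted cells against WT. Between Ezh2-deleted and p53-deleted cells 3.92% were called. In ETP-ALL 2.42% were called against double-deleted DN2 and 3.41% against double-deleted DN1.

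Of 25 other progenitor surface antigens, 6 rose and 1 fell in Ezh2-deleted, 7 rose and 4 fell in p53-deleted and 3 rose in double-deleted cells against WT, where 34.1%, 35.8% and 7.41% of all features were called. Prom1 (CD133), a stem cell antigen, was not well above background in WT cells and stood at -0.80, 0.09 and -0.50 in double-deleted and -2.26, 0.23 and -1.02 in Ezh2-deleted DN1, DN2 and DN3 cells. It was at least 9.05-fold higher in double-deleted and at least 5.91-fold higher in Ezh2-deleted cells. Alcam (CD166), an adhesion molecule, rose by 2.64 ± 0.28 in double-deleted and 2.28 ± 0.28 in Ezh2-deleted against WT cells. It fell by 3.90 ± 0.50 in ETP-ALL against double-deleted DN2 (adjusted p = 0.0055). It was the only one of the 25 called there, where 2.42% of all features were. Slamf1 (CD150), of stem cells and thymocytes, rose by 1.98 ± 0.44 in both double-deleted and p53-deleted cells. Il7r, of lymphoid progenitors, rose by 1.89 ± 0.55 and Itgb3 by 2.60 ± 0.67 in p53-deleted cells, while Bst1 fell by 3.59 ± 0.93 there.

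The named genes most like each of the 7 in pattern were ranked by Pearson's r over the 14 arrays, among 12383 genes well above background on at least 7 arrays. These arrays share slides, stages and genotypes, so the values describe the arrays alone. Cd34 was most like Rgs18 (r = 0.909), Mpo (0.895) and Btk (0.878), and Mpo, myeloperoxidase, is 1 of the granulocyte precursor markers above. Ly6a was most like Irgm2 (0.964), Irgm1 (0.949) and Trim21 (0.941), genes known to respond to interferon. Csf1r was most like Elane (0.967), Atp2b2 (0.919) and Arl4c (0.915), and Elane is also 1 of the granulocyte precursor markers. Flt3 was most like Xdh (0.949), Pim2 (0.928) and S1pr4 (0.926). Cd44 was most like Ankrd44 (0.920), Anxa1 (0.905) and Dennd3 (0.904), and Cd93 like Phactr2 (0.882), Ripor1 (0.853) and Mta3 (0.837). Kit had the lowest values, with Cd151 (0.845), Slc7a8 (0.822) and Arhgap5 (0.807).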

How the data were processed

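RNA of 14 samples was measured on Agilent 1-colour arrays, and 20 ng of total RNA was labelled with Cy3, per the labels' protocols. Per the file headers, Feature Extraction 10.7.1.1 made the processed signal intensity of each spot in the deposited files, which is background-subtracted. From its values, the authors' deposited table holds that linear intensity divided by 1 constant per array, near its 75th percentile.

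The members and gene lists were chosen with earlier results of these data known. Processed intensities were put on the log2 scale and shifted by each array's 75th percentile, without control and outlier spots, with the spots of a probe averaged (59305 spots, 55681 probes). RefSeq accessions gave 27656 probes 1 symbol, 28025 none and none several. A probe was tested if well above background on at least 2 of 14 arrays, and the probe of highest mean stood for its gene (27056 features, 14243 named). Where no array of 1 group showed a gene well above background, "at least N-fold" sets the brighter group's mean against a floor averaged over the dimmer arrays, on each the higher of the probe's own signal and the lowest signal that passed as well above background. For ETP-ALL the brighter or dimmer double-deleted side of such a bound is the single array of that stage, while the adjusted p is that of the additive estimate. For a gene with several probes the bound is that of the probe used.

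An additive model of genotype and stage was fitted over the 12 arrays without leukemia by limma 3.58.1 (lmFit, eBayes, Benjamini-Hochberg adjustment over all features of a comparison) in R 4.3.3, with 6 residual degrees of freedom and 2.86 from the prior. For ETP-ALL, a fit of all 14 arrays gave the difference from the additive estimate of double-deleted DN2 or DN1, with 7 and 2.73. A call is an adjusted p under 0.05, and 8 comparisons were made. Genes named outside the 7 were the ligands, of each other list at most 4 called genes per comparison by the size of the change, markers of cells and targets, and for each of the 7 the 3 nearest in pattern. Whether the 3 stages of a genotype were taken from different mice is not labelled, and p-values between genotypes rest on the spread over stages, which need not be that between mice, and the number of arrays limits the precision. The fit was tested on simulated data with known changes. Alternatives were normexp background correction with an offset of 50, quantile normalization, scaling on the 18571 probes well above background on all arrays, the authors' table, no filter, every probe as its own feature, slide as a block or alone, and leaving out each array. Sequences come from RefSeq (GRCm38.p6). The array grid is of mm9, so no probe coordinates are given.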

Additional observations from a re-analysis of the deposited data

Results flagged for a closer look

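For each of the 7 genes, each stage holds 4 arrays, and in 2 of these 21 groups of 4 the lowest array stood apart from the rest by more than Dixon's criterion allows, where chance alone flags about 1 in 20. Both were the p53-deleted DN1 array. Its Flt3 level was -1.51, against -0.25 in double-deleted, -0.10 in Ezh2-deleted and -0.11 in WT DN1 cells, with a gap over range of 0.892. Its Cd34 level was -4.34, not well above background, against 3.15, 2.19 and 3.47 in the same order, with a gap over range of 0.836. On this array the summed level of 7 granulocyte precursor markers was 4.04, against 45.1 in double-deleted, 93.4 in Ezh2-deleted and 47.8 in WT DN1 cells, and Prtn3, Ms4a3, S100a8 and S100a9 were not well above background. The summed level of 6 NK cell markers was 184, within the range of 38.9 to 467 in the other 3 DN1 arrays.

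Cd44 moved in opposite directions between DN1 and DN2. The difference, DN2 minus DN1, was 0.81 in p53-deleted cells, against -1.09 in double-deleted, -1.69 in Ezh2-deleted and -1.71 in WT cells. Each is 1 array minus 1 array of a gene that the gate selects on, and the difference between genotypes was not tested. The second brightest Cd44 probe had the same sign in p53-deleted cells, at 2.65 in DN2 and 1.87 in DN1.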

How the results depend on the processing

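Ly6a kept its 4 calls (Ezh2-deleted and p53-deleted against WT, and ETP-ALL against double-deleted DN2 and DN1) under every alternative that was fitted, leave-outs included, as did Csf1r in p53-deleted against WT cells. Slide as a block or alone was not fitted for these comparisons, in which slide and group cannot be told apart. The calls of Cd93 and Csf1r in Ezh2-deleted, and of Cd34 in p53-deleted cells and in ETP-ALL against double-deleted DN1, were lost as described above. Scaling on the probes detected on all arrays lost 2 member calls, that of Cd34 in ETP-ALL against double-deleted DN1 and another of these. Without a filter on dim probes Csf1r in Ezh2-deleted cells (-1.25, adjusted p = 0.0508) and Cd34 in ETP-ALL against double-deleted DN1 (adjusted p = 0.0532) were not called, with more features tested. Normexp background correction added calls for Ly6a in DN2 against DN1 (-0.96, adjusted p = 0.0216) and DN3 against DN2 (-1.45, adjusted p = 0.0334), Csf1r in double-deleted against WT (-0.999, adjusted p = 0.0282) and Cd93 in ETP-ALL against double-deleted DN2 (-2.11, adjusted p = 0.0206). No paired analysis was possible because every sample but 1 leukemia is numbered 1, so replicate numbers give no pairs, and the additive fit already compares genotypes within stage and stages within genotype.

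Over all features, the count of calls with normexp was 10323 for double-deleted against WT (1640 higher), against 2005 (976 higher), 354 against 1060 for Ezh2-deleted against p53-deleted, 1470 against 654 for ETP-ALL against double-deleted DN2 and 2118 (1407 higher) against 922 (460 higher) against DN1. It was 13511 (9956 higher) against 9221 (4218 higher) for Ezh2-deleted, and 11974 (8153 higher) against 9694 (4145 higher) for p53-deleted against WT. Normexp moved the median of all features to 0.35, 0.27 and -0.27 for Ezh2-deleted, p53-deleted and double-deleted against WT, from which changes under it are to be read. Scaled on the probes seen on all arrays, limma called 1162 (779 higher) for double-deleted against WT, and 2 higher and 3 lower in place of 1 and 5 for DN3 against DN2. Slide as a block, which leaves out double-deleted DN1, called 552 (447 higher) and slide 1 alone 363 (333 higher) for double-deleted against WT. Within slide 2, limma called 5 in DN2 against DN1 and 90 in Ezh2-deleted against p53-deleted, and for DN3 against DN2 it called 0 within slide 1 and 0 within slide 2. Leaving out 1 array gave 141 to 2417 calls for DN2 against DN1, the fewest with Ezh2-deleted DN2 left out and the most with p53-deleted DN1 left out, 2 to 10 for DN3 against DN2, 6084 to 9081 for Ezh2-deleted, 6754 to 8832 for p53-deleted and 395 to 1871 for double-deleted against WT, 275 to 1017 for Ezh2-deleted against p53-deleted, and 99 to 834 and 275 to 945 for ETP-ALL against double-deleted DN2 and DN1, with 99 and 275 without the double-deleted array of that stage.

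Of the member values not called, 39 alternatives turned the sign, and the cause was not tested. Against the single double-deleted array in place of the additive estimate, which gives no test, Cd34 was -5.45 and Cd93 -1.63 for DN2, and Cd34 was -8.10 and Cd93 -1.09 for DN1. With the slide block Cd34 was 0.038 in DN2 against DN1, within slide 2 it was 0.25, and Csf1r in DN3 against DN2 was 0.030 within slide 1. With normexp, Flt3 was 0.58 in Ezh2-deleted against WT and 0.16 against p53-deleted, and Cd44 was 0.13 in Ezh2-deleted against WT (0.033 with the authors' deposited table). Cd44 in double-deleted against WT was 0.11 under the slide block and 0.048 for slide 1 alone. Kit in ETP-ALL against double-deleted DN2 was -0.0093 with the authors' deposited table. Leaving out 1 array, the ranges that crossed 0 were -1.56 to 0.038 for Cd34 in DN2 against DN1 and -0.39 to 0.073 for Csf1r in DN3 against DN2. For Ezh2-deleted against WT they were -0.998 to 0.14 for Flt3, -2.10 to 0.54 for Cd34 and -0.58 to 0.55 for Cd44. For p53-deleted against WT they were -0.12 to 1.08 for Kit, -0.13 to 1.62 for Flt3, -0.090 to 0.86 for Cd93 and -0.61 to 0.83 for Cd44. For double-deleted against WT they were -2.13 to 0.51 for Cd34, -0.11 to 0.84 for Cd93 and -0.62 to 0.51 for Cd44. For Ezh2-deleted against p53-deleted they were -0.17 to 1.03 for Kit and -0.85 to 0.59 for Cd44, and for ETP-ALL against double-deleted DN2 -0.81 to 0.83 for Kit and -0.27 to 1.15 for Flt3.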
